A study of Mus musculus with 3 samples.

Results

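The genes described here encode the enzymes that write, copy and remove DNA methylation: Dnmt1, Dnmt3a, Dnmt3b, Dnmt3l, Uhrf1, Tet1, Tet2 and Tet3. They were followed in RNA of fetal testes, hybridised to one-colour Agilent 44K arrays. A probe was taken as a member where the transcript accession on the array matched one of these 8 symbols in the mouse RefSeq gene table. Of the 8 genes, 6 had probes. There were 10 such probes among 41174 non-control probes, and the array named 16535 genes in all. Dnmt3a had 3 probes, Uhrf1 and Tet2 had 2 each, and Dnmt1, Dnmt3b and Dnmt3l had 1 each. Tet1 and Tet3 had no matching probe and were not analysed here. In RefSeq on GRCm38.p6, Dnmt3l lies at chr10:78042287-78063622, Dnmt3a at chr12:3801559-3914443 and Dnmt3b at chr2:153649411-153687730. Dnmt1 lies at chr9:20907206-20959888, Uhrf1 at chr17:56303337-56323486 and Tet2 at chr3:133463677-133545136. The exons that the probes report were not analysed here.

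Male gonads came from mouse embryos at embryonic day 14.5 of 3 genotypes, with 2 arrays each. The double knockout lacked both Cyp26b1 and Stra8 (Cyp26b1-/-/Stra8-/-), the Cyp26b1 knockout kept Stra8 (Cyp26b1-/-/Stra8+/+), and the wild type kept both (Cyp26b1+/+/Stra8+/+). All 3 genotypes were of the mouse line MCH, and neither knockout is described as limited to a cell type. The duplicates are described as biological; whether each was 1 embryo or a pool is not stated, and the p-values measure the spread between these arrays only. There was no genotype that lacked Stra8 alone.

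As background, DNMT3A and DNMT3B place methyl groups on unmethylated CpG sites, and DNMT3L is a partner without enzyme activity that stimulates them. DNMT1 copies the pattern onto new strands after replication, guided to hemimethylated CpG sites by UHRF1. TET enzymes oxidise the methyl group, which opens the way to its removal. In the mouse fetal testis, germ cells stop dividing and then receive new methylation genome-wide, a process that needs Dnmt3a and Dnmt3l. Cyp26b1 encodes the enzyme that degrades retinoic acid in the fetal testis, and Stra8, which retinoic acid induces, encodes a factor of meiotic entry. The comparisons ask how the methylation genes stood after loss of Cyp26b1, and how they stood when Stra8 was absent as well.

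Levels are given as the log2 of the processed signal, less the array's own 75th percentile, so that 0 is the array's upper quartile and a step of 1 is a doubling. Levels of different probes cannot be set against each other. Upper quartile signals were 997 to 1536, and 61.9% to 68.6% of probes were well above background. The 2 arrays of a genotype had a Pearson r of 0.994 to 0.996 across 18971 features, which are not independent replicates. All 10 member probes were well above background on 6 of 6 arrays and none was saturated. The probe of Cyp26b1 read 4.06 and 3.87 in the double knockout, 4.23 and 3.78 in the Cyp26b1 knockout and 3.99 and 3.79 in the wild type, and that of Stra8 read 5.93 and 6.09 in the double knockout, 7.15 and 6.99 in the Cyp26b1 knockout and 3.69 and 2.37 in the wild type. The sources used here do not place these probes against the deleted parts, so they do not check the genotypes. Each genotype lay on 1 slide of its own, and the Cyp26b1 knockout arrays were scanned on another day than the other 4. Slide and genotype therefore cannot be told apart, nor can scan day in a comparison with the Cyp26b1 knockout. The double knockout and the wild type shared a scan day.

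**Figure D1:**
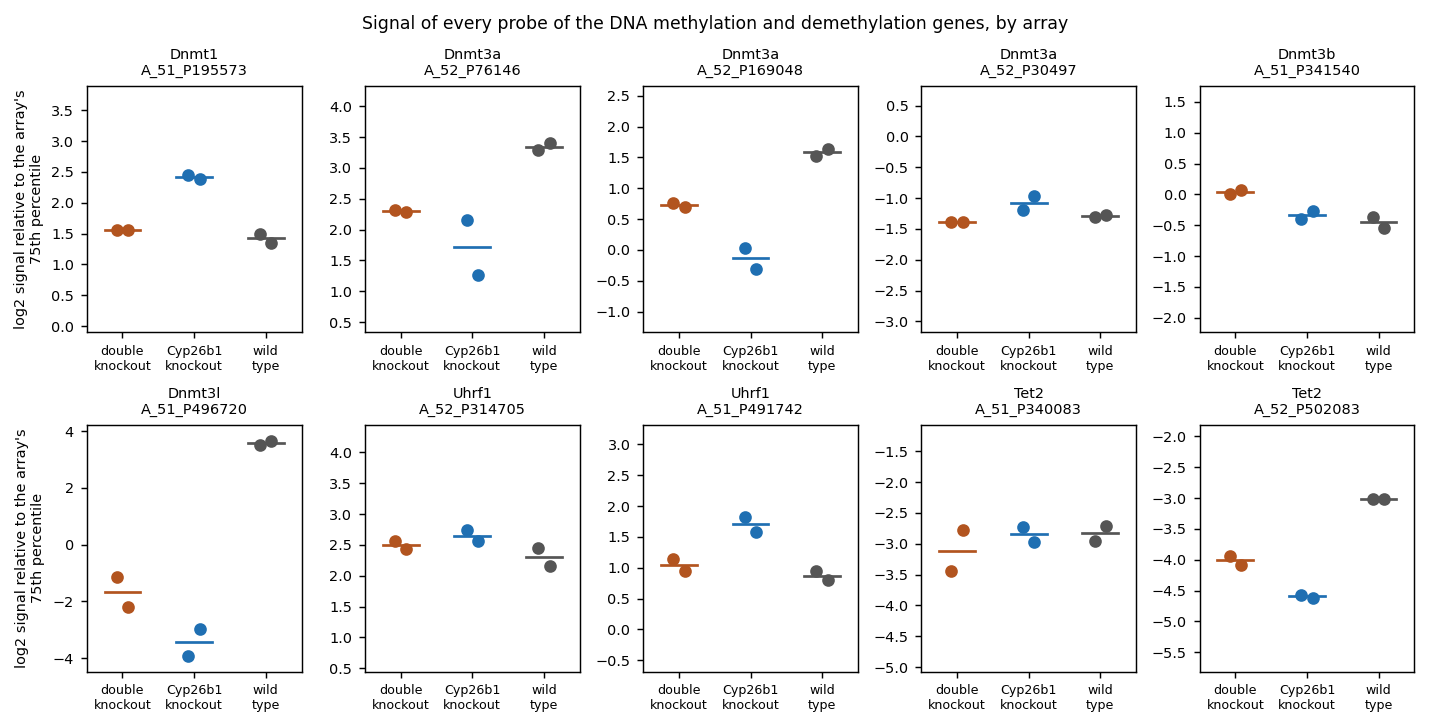
Signal of each of the 10 probes (log2, relative to the array's 75th percentile) on the 6 arrays. Each point is an array, each bar is the mean of a genotype, and the vertical scale differs among panels. Dnmt3l lies between -1.14 and -2.20 in the double knockout and between -2.99 and -3.91 in the Cyp26b1 knockout, against 3.51 and 3.65 in the wild type.

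Dnmt3l was the member that differed most. Its probe A_51_P496720 read -1.14 and -2.20 in the double knockout, -3.91 and -2.99 in the Cyp26b1 knockout and 3.51 and 3.65 in the wild type. Both wild-type arrays were far above all 4 knockout arrays, and the double knockout arrays were both above the Cyp26b1 knockout arrays. As processed signals before scaling, these were 565 and 314 in the double knockout, 66.2 and 143 in the Cyp26b1 knockout and 14788 and 19331 in the wild type. Against the wild type, Dnmt3l in the Cyp26b1 knockout fell by 7.03 ± 0.38 (SE, log2), which is 131-fold lower (limma, adjusted p = 7.19e-05). In the double knockout it was 38.1-fold lower than in the wild type, at -5.25 ± 0.38 (adjusted p = 0.000646). In both comparisons with the wild type this was the largest fall in fitted change among the 21552 features tested. Between the knockouts, Dnmt3l was higher in the double knockout by 1.78 ± 0.38 (adjusted p = 0.00876). The order of the genotypes was thus Cyp26b1 knockout, double knockout and wild type from low to high, and each neighbouring pair passed the threshold. The arrays of a knockout lay up to 1.06 apart, while the nearest arrays of the knockouts read -2.20 and -2.99. Without moderation of variances neither neighbouring pair passed. The adjusted p in limma was then 0.123 between the knockouts and 0.0887 for the double knockout against the wild type. All 3 calls held with any 1 array left out.

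RefSeq lists 3 start sites of Dnmt3l on chromosome 10 (GRCm38.p6). The window from 250 bases before to 50 bases after each start was searched for 3 motifs, picked with the sequences in view: the E-box CACGTG, the retinoic acid receptor half-site AGGTCA, and the motif CNCCTCAG that is known to be bound by mouse STRA8. Both strands were searched. Of 32817 RefSeq promoter windows of this length, 7.15% held CACGTG, 16.3% held AGGTCA and 7.94% held CNCCTCAG on either strand. The window of the second start, chr10:78049592-78049891 on the plus strand, is shown because it was the one Dnmt3l window with a match. Capitals mark CNCCTCAG at -157 and at -88 and CACGTG at -44, counted from the start site, with -1 as the base before it.
Dnmt3l, chr10:78049592-78049891: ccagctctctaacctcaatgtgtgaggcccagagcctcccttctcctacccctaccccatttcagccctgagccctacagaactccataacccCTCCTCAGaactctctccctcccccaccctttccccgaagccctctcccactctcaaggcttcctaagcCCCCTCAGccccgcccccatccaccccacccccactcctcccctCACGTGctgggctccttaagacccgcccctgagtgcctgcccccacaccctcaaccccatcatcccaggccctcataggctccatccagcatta
This window held 4 CpG, against a median of 7 over all windows, so it is poor in the site the enzymes methylate. The windows of the other starts, chr10:78042037-78042336 with 6 CpG and chr10:78055085-78055384 with 3 CpG, had no match to these letters. A match is a description of the letters and was not tested as a binding site. Which start site the array probe reports was not analysed here.

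Dnmt3a, the catalytic partner of DNMT3L, was lower in both knockouts on 2 of its 3 probes. The brightest probe, A_52_P76146, carries the accession NM_153743 and stood for the gene. It read 2.32 and 2.28 in the double knockout, 2.16 and 1.27 in the Cyp26b1 knockout and 3.29 and 3.40 in the wild type. The wild-type arrays were above all others, and the Cyp26b1 knockout arrays were the most spread. Against the wild type, Dnmt3a fell in the Cyp26b1 knockout by 1.63 ± 0.24 (log2), 3.106-fold (limma, adjusted p = 0.00148). In the double knockout against the wild type it fell by 1.05 ± 0.24, 2.068-fold (adjusted p = 0.0359). Between the knockouts the difference was 0.59 (95% interval 0.015 to 1.16, adjusted p = 0.0899), so these neighbours in the order were not separated. The call in the double knockout against the wild type was lost when any 1 array of the compared genotypes was left out: the change was -1.07 (adjusted p = 0.0906) without double knockout array 1, -1.03 (0.103) without double knockout array 2, -1.10 (0.128) without wild-type array 1 and -0.995 (0.175) without wild-type array 2. Without Cyp26b1 knockout array 1, the array with the higher value, the difference between the knockouts became 1.03 and passed (adjusted p = 0.00385), and without Cyp26b1 knockout array 2 it became 0.14 (adjusted p = 0.266). It also passed with median centring (0.70, adjusted p = 0.0496) and as the mean of probes (0.38, adjusted p = 0.0393).

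The other Dnmt3a probes did not act alike. A_52_P169048, with accession NM_007872, read 0.76 and 0.70 in the double knockout, 0.034 and -0.30 in the Cyp26b1 knockout and 1.53 and 1.63 in the wild type. In a fit with every probe as its own feature, it fell by 1.72 ± 0.12 in the Cyp26b1 knockout (adjusted p = 0.000102) and by 0.85 ± 0.12 in the double knockout (adjusted p = 0.00737), each against the wild type. This probe put the double knockout between the other genotypes, 0.87 above the Cyp26b1 knockout (adjusted p = 0.00151). A_52_P30497, with the same accession, read -1.39 and -1.39 in the double knockout, -1.18 and -0.96 in the Cyp26b1 knockout and -1.30 and -1.27 in the wild type. Its changes were -0.10 in the double knockout (adjusted p = 0.598) and 0.21 in the Cyp26b1 knockout (adjusted p = 0.155), each against the wild type, and -0.32 between the knockouts (adjusted p = 0.0568). The third probe thus did not pass in any comparison, while its accession was that of a probe that did.

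Mouse Dnmt3a is known to be transcribed from an upstream start and from an internal start that gives the shorter protein of early embryos and germ cells. RefSeq lists an internal start in the window chr12:3891494-3891793 on the plus strand, shown because both kinds of motif meet there. Capitals mark CACGTG at -80 joined to TGACCT at -76, the reverse complement of AGGTCA, and the matches share their last and first bases TG.
Dnmt3a, chr12:3891494-3891793: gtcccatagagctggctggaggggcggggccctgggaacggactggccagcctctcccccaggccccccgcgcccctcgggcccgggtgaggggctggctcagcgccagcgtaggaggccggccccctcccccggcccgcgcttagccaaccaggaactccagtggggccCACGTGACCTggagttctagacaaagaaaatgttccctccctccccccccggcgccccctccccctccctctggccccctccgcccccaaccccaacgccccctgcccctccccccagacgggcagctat
It held 18 CpG, against 46 and 47 CpG in the overlapping windows of the upstream starts, chr12:3806730-3807029 and chr12:3806910-3807209, which had no match. All 3 Dnmt3a windows were thus richer in CpG than the Dnmt3l window with its 4 CpG. Of the 15 windows of the 8 genes, Uhrf1 at chr17:56304063-56304362 held AGGTCA at -162 and the Tet1 window held its reverse complement at -44. The windows of Dnmt1, Dnmt3b, Tet2 and Tet3 had no match. Which Dnmt3a start each array probe reports was not analysed here.

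Dnmt3b, the other de novo methyltransferase, did not fall. Its probe A_51_P341540 read -0.00004 and 0.063 in the double knockout, -0.40 and -0.26 in the Cyp26b1 knockout and -0.37 and -0.54 in the wild type. The double knockout arrays were above the other 4, and the Cyp26b1 knockout and wild-type values overlapped. Dnmt3b was higher in the double knockout than in the wild type by 0.49 ± 0.11, 1.402-fold (limma, adjusted p = 0.0282), and higher than in the Cyp26b1 knockout by 0.36 (adjusted p = 0.0284). The Cyp26b1 knockout differed from the wild type by 0.13 (95% interval -0.12 to 0.37, adjusted p = 0.35). The call against the wild type was lost without double knockout array 1 (0.52, adjusted p = 0.0739) or array 2 (0.46, 0.107) and without wild-type array 1 (0.57, 0.0803) or array 2 (0.40, 0.185). That against the Cyp26b1 knockout was lost without double knockout array 1 (0.39, 0.0697) or array 2 (0.33, 0.114) and without Cyp26b1 knockout array 1 (0.296, 0.109), and both were lost with the scaling of the authors' value table (0.29, adjusted p = 0.0866, and 0.059, adjusted p = 0.678).

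Dnmt1 and Uhrf1, the maintenance pair, were higher in the Cyp26b1 knockout. The Dnmt1 probe A_51_P195573 read 1.57 and 1.57 in the double knockout, 2.44 and 2.38 in the Cyp26b1 knockout and 1.49 and 1.35 in the wild type. The Cyp26b1 knockout arrays stood apart from the other 4. Dnmt1 rose by 0.99 ± 0.085 in the Cyp26b1 knockout against the wild type, 1.985-fold (limma, adjusted p = 0.000214). It was lower in the double knockout than in the Cyp26b1 knockout, at -0.85 (adjusted p = 0.000667). Double knockout and wild type differed by 0.14 (95% interval -0.057 to 0.34, adjusted p = 0.311), a sign that turned, to -0.058, with the scaling of the authors' value table. Dnmt1 kept its 2 calls under each of the 19 other settings tried. Both calls compare with the Cyp26b1 knockout, so none of these settings can tell genotype from slide or scan day there.

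Uhrf1 had 2 probes that differed in size of change. Its brightest probe, A_52_P314705, read 2.56 and 2.43 in the double knockout, 2.74 and 2.57 in the Cyp26b1 knockout and 2.45 and 2.15 in the wild type. It rose in the Cyp26b1 knockout against the wild type by 0.35 ± 0.12 (adjusted p = 0.043), with the 2 pairs of arrays close but not overlapping. This call was lost in 10 of the 19 other settings, among them the fits without either double knockout array (adjusted p = 0.052 and 0.0515), without either Cyp26b1 knockout array (0.178 and 0.0504) and without wild-type array 2 (0.257). The differences were 0.19 between double knockout and wild type (adjusted p = 0.335; -0.0091 with the value table's scaling) and -0.16 between the knockouts (adjusted p = 0.315). The difference between the knockouts passed with that scaling (-0.46, adjusted p = 0.0186) and as the mean of probes (-0.41, adjusted p = 0.0267). The dimmer probe, A_51_P491742, read 1.14 and 0.95 in the double knockout, 1.83 and 1.58 in the Cyp26b1 knockout and 0.94 and 0.81 in the wild type. In the fit of single probes it rose by 0.83 ± 0.12 in the Cyp26b1 knockout against the wild type (adjusted p = 0.00105), and the double knockout was lower than the Cyp26b1 knockout, at -0.66 (adjusted p = 0.00373). On both probes of Uhrf1 the Cyp26b1 knockout had the highest mean.

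Tet2, the one Tet gene with probes, gave 2 answers. Its brighter probe, A_51_P340083, read -3.44 and -2.78 in the double knockout, -2.73 and -2.96 in the Cyp26b1 knockout and -2.95 and -2.71 in the wild type. All 3 genotypes overlapped. The changes were -0.28 in the double knockout (95% interval -0.83 to 0.27, adjusted p = 0.469) and -0.020 in the Cyp26b1 knockout (-0.57 to 0.53, adjusted p = 0.951), each against the wild type, and -0.26 between the knockouts (adjusted p = 0.404). The signs of these small changes turned under some settings, to 0.083 for the Cyp26b1 knockout with the value table's scaling. As the mean of both probes, Tet2 fell in the Cyp26b1 knockout against the wild type, at -0.80 (adjusted p = 0.00651). Its dimmer probe, A_52_P502083, read -3.94 and -4.08 in the double knockout, -4.57 and -4.62 in the Cyp26b1 knockout and -3.01 and -3.01 in the wild type. There the wild type was above both knockouts without overlap. Processed signals before scaling were 81.3 and 85.2 in the double knockout and 42.0 and 46.1 in the Cyp26b1 knockout. In the wild type they were 162 and 191. This probe was the dimmest of the member probes on every array. In the fit of single probes it fell by 1.59 ± 0.17 in the Cyp26b1 knockout (adjusted p = 0.000304) and by 1.0 ± 0.17 in the double knockout (adjusted p = 0.0114), each against the wild type, and it was 0.59 higher in the double knockout than in the Cyp26b1 knockout (adjusted p = 0.0232).

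**Figure D2:**
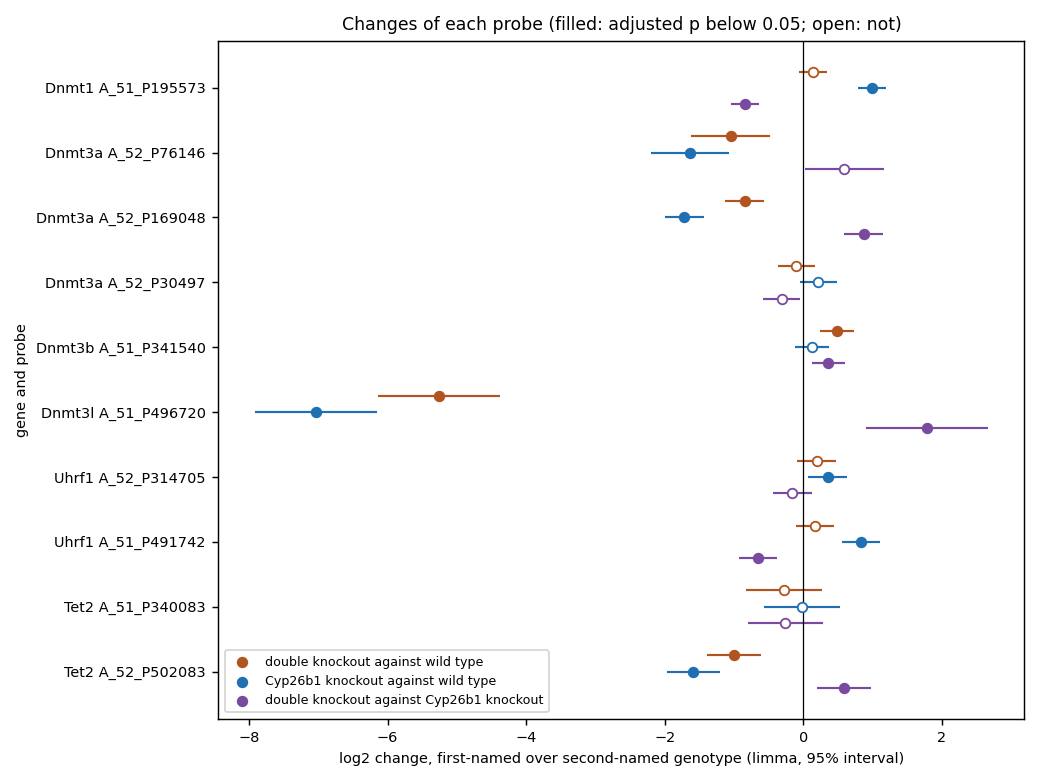
Log2 change of each probe with its 95% interval in the fit of single probes, for the 3 comparisons. Filled points passed an adjusted p of 0.05 and open points did not, and the intervals of Dnmt3l against the wild type lie far left of all others, from -7.91 to -4.37.

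Set against all features, the counts of members called were as follows. For the double knockout against the wild type, 1 member was higher, 2 were lower and 3 did not pass, when 11.9% of all features were called, 5.32% higher and 6.57% lower. In the Cyp26b1 knockout against the wild type, 2 members were higher, 2 were lower and 2 did not pass, when 51.1% of features were called, 21.3% higher and 29.8% lower. Between the knockouts, 2 members were higher in the double knockout, 1 was lower and 3 did not pass, when 42.9% of features were called, 25.3% higher and 17.6% lower. A call in a comparison with the Cyp26b1 knockout was thus a frequent event on these arrays. The median change of the 6 members was -0.07 in the double knockout and 0.05 in the Cyp26b1 knockout, each against the wild type, when the median of all features was -0.02 and -0.09. Between the knockouts these medians were 0.10 for the members and 0.09 for all features. The 3 calls in the double knockout against the wild type became 1 when either double knockout array or either wild-type array was left out. Of the 10 single probes, 5 were called in the double knockout against the wild type, 7 in the Cyp26b1 knockout against the wild type and 6 between the knockouts, when 11.5%, 53.2% and 45.8% of all single probes were called.

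The direction of calls over all features depended on scaling. The share of calls that were higher was 44.7% in the double knockout and 41.7% in the Cyp26b1 knockout, each against the wild type, and 58.9% between the knockouts. With the scaling of the authors' value table these shares were 13.5%, 51.7% and 22.7%, and with median centring 71% for the double knockout against the wild type and 70.7% between the knockouts. With normexp background correction the share in the double knockout against the wild type was 60%. The value table's scaling moved the median of all features by -0.20, 0.10 and -0.30 in these 3 comparisons. The falls of Dnmt3l and Dnmt3a against the wild type and the changes of Dnmt1 that passed kept their direction under each scaling.

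Probes of one gene were also compared with each other. The difference between each other probe and the brightest probe of its gene was fitted for 5594 pairs, a test added after the values were seen. It passed in 58.3% of pairs in the Cyp26b1 knockout against the wild type and in 57% between the knockouts, but in 0.858% in the double knockout against the wild type. In the Cyp26b1 knockout the other, dimmer probes had the higher change in 2500 of the pairs called and the lower in 761. Among the members, Dnmt3a A_52_P30497 differed from the brightest Dnmt3a probe by 1.85 in the Cyp26b1 knockout against the wild type (adjusted p = 0.00825), Tet2 A_52_P502083 by -1.57 (adjusted p = 0.00582) and Uhrf1 A_51_P491742 by 0.48 (adjusted p = 0.00626). Dnmt3a A_52_P169048 differed from it by -0.08 (adjusted p = 0.72). Set between double knockout and wild type, the same pairs differed by 0.95 (adjusted p = 0.205), -0.72 (0.207), -0.02 (0.9) and 0.20 (0.563), and none passed. Between the knockouts, the Tet2 pair (0.85, adjusted p = 0.0442) and the Uhrf1 pair (-0.50, adjusted p = 0.00556) passed. The part of the scan day or slide in these differences was not tested.

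**Figure D3:**
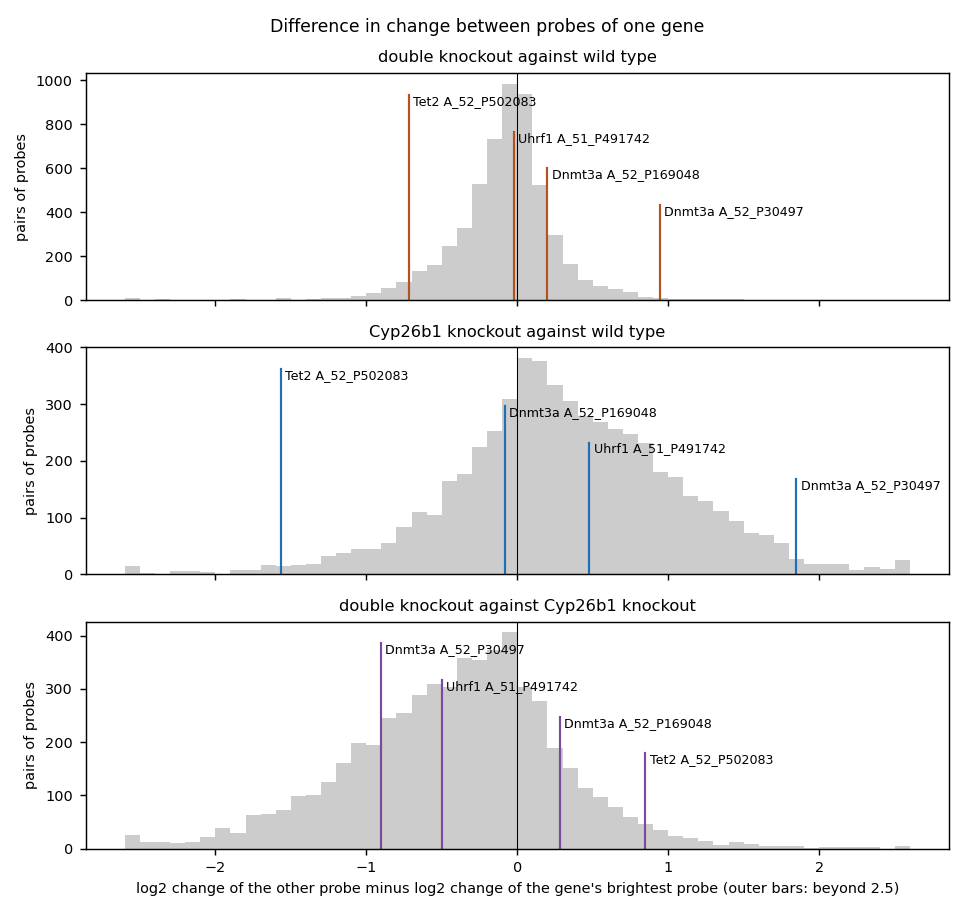
Number of pairs of probes of one gene (vertical axis) by the difference in log2 change between the other and the brightest probe (horizontal axis), with the members' pairs as lines. The grey distribution is narrow for double knockout against wild type, where 0.858% of pairs were called, and wide in both comparisons with the Cyp26b1 knockout.

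Cell type markers were read beside these genes, since in bulk tissue fewer cells of a type and less RNA per cell cannot be told apart. The summed signal of 13 germ cell markers, relative to the upper quartile on a linear scale, was 120 to 156 in the double knockout, 105 to 153 in the Cyp26b1 knockout and 138 to 141 in the wild type, so the sums overlapped. Such sums are carried by the brightest probes and do not measure amounts of cells. The brightest were Dppa5a here, Rec8 and Smc1b among the meiotic markers and Cst9 among the Sertoli markers. Dppa5a read 5.11 and 5.83 in the double knockout, 6.04 and 4.99 in the Cyp26b1 knockout and 5.26 and 5.11 in the wild type. Of these 13, 3 rose and 4 fell in the double knockout and 4 rose and 6 fell in the Cyp26b1 knockout, each against the wild type. In the Cyp26b1 knockout Taf7l (1.84), Kit (1.07), Sycp3 (0.99) and Dazl (0.72) rose, and Dnd1 (-2.01) and Tfap2c (-1.69) fell the most. The first of the list, Ddx4, an RNA helicase gene of germ cells, changed by -0.10 in the double knockout (limma, adjusted p = 0.546) and by -0.46 in the Cyp26b1 knockout (adjusted p = 0.00771), each against the wild type. The 6 male germ cell markers summed to 25.8 to 26.8 in the double knockout, 6.83 to 9.25 in the Cyp26b1 knockout and 34.4 to 38.9 in the wild type. All 6 of them fell in the Cyp26b1 knockout against the wild type and 2 fell in the double knockout. The sum had the genotype order of Dnmt3l, but not every marker did: Lhx1 was lower in the double knockout than in the Cyp26b1 knockout, at -1.14 (adjusted p = 0.0065), and Nanos3 was at 0.37 in the double knockout against the wild type (adjusted p = 0.244). The first of them, Nanos2, a regulator of male germ cell fate, changed by -1.01 in the double knockout (adjusted p = 0.0471) and by -2.93 in the Cyp26b1 knockout (adjusted p = 0.000228). The 8 meiotic markers summed to 44.3 to 48.0 in the double knockout, 41.1 to 49.1 in the Cyp26b1 knockout and 12.6 to 15.2 in the wild type. Of these, 3 rose in the double knockout and 7 in the Cyp26b1 knockout, each against the wild type, and 3 were lower in the double knockout than in the Cyp26b1 knockout. The meiotic recombination gene Dmc1 changed by -0.29 in the double knockout (adjusted p = 0.54) and rose by 2.10 in the Cyp26b1 knockout, each against the wild type. Msh5 likewise changed by -0.44 in the double knockout (adjusted p = 0.169) and rose by 2.25 in the Cyp26b1 knockout, while Rec8, a meiotic cohesin, rose by 3.06 in the double knockout and by 2.77 in the Cyp26b1 knockout. Dmc1 and Msh5 were lower in the double knockout than in the Cyp26b1 knockout, at -2.39 and -2.69. These genes were picked after their values were seen. Of the other meiotic markers, Sycp2 was also lower there, at -0.66. Rec8 (0.29), Sycp1 (0.10), Hormad1 (-0.11), Smc1b (-0.39) and Spo11 (-0.22) did not pass between the knockouts. Spo11 did not pass against the wild type either, at -0.55 in the double knockout and -0.33 in the Cyp26b1 knockout. The 12 genes of S phase and mitosis summed to 92.7 to 93.2 in the double knockout, 101 to 105 in the Cyp26b1 knockout and 85.2 to 85.5 in the wild type. Of these 12, 7 were higher in the Cyp26b1 knockout and 1 in the double knockout, each against the wild type. Between the knockouts, 7 were lower in the double knockout. The Sertoli markers summed to 155 to 183, 174 to 181 and 139 to 158, and the fetal Leydig markers to 83.4 to 98.7, 59.5 to 78.8 and 97.9 to 113, in the same order of genotypes. The part of these markers in the members' changes was not tested.

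The genes whose profile over the 6 arrays was most like each member are given by the root mean square difference of the log2 profiles after each was centred on its mean. For Dnmt1 they were Tex101 at 0.0351, Ctu2 at 0.0443 and Dnajc14 at 0.0473. For Uhrf1 they were Atp5pb at 0.0261, Sdsl at 0.0378 and Pgap2 at 0.0395, and for Dnmt3b they were Tbc1d12 at 0.0394 and Mios at 0.0484. For Dnmt3a they were Bend6 at 0.116, Acpp at 0.127 and Ffar2 at 0.134. For Tet2 they were Ntsr2 at 0.102, H2ac8 at 0.102 and Tmem269 at 0.116. For Dnmt3l they were Gzma at 0.599, Nr2e1 at 0.935 and Clca1 at 1.02. This measure is not scaled to how much a gene varied, so its size cannot be set against that of another member. The members differed in how much they varied. The genotype means of Dnmt3l spanned 7.03 against a largest difference within a genotype of 1.06, and those of Tet2's brightest probe spanned 0.28 against 0.66.

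The small RNA genes that direct de novo methylation in male germ cells were mostly lower in the Cyp26b1 knockout. Of the 16 listed, 10 were tested. Of these, 1 was lower and none was higher in the double knockout against the wild type (0 higher and 3 lower at an unadjusted p below 0.05 in limma), and 8 were lower and none was higher in the Cyp26b1 knockout (0 and 9). Between the knockouts, 8 were higher in the double knockout and none was lower (8 and 0). The median changes in these comparisons were -0.30, -0.99 and 0.75. The count of 1 lower in the double knockout became 0 without any 1 double knockout or wild-type array and 3 without either Cyp26b1 knockout array, and 1 was lower between the knockouts without Cyp26b1 knockout array 1. Over the other settings the 8 lower in the Cyp26b1 knockout were 6 to 9, and the 8 higher between the knockouts were 5 with normexp background correction and 1 without moderation of variances. Over all features, 11.9% of all features were called in the double knockout and 51.1% in the Cyp26b1 knockout, each against the wild type, and 42.9% between the knockouts. Morc1, a silencing factor of male germ cells, read 1.98 and 2.40 in the double knockout, -0.79 and 0.31 in the Cyp26b1 knockout and 2.95 and 3.16 in the wild type. It fell by 3.30 in the Cyp26b1 knockout against the wild type (limma, adjusted p = 0.00029) and was 2.43 higher in the double knockout than in the Cyp26b1 knockout (adjusted p = 0.00145). Tdrd1, a scaffold of the piRNA pathway, fell by 2.01 in the Cyp26b1 knockout and was 1.5 higher in the double knockout than there. Henmt1, the methyltransferase of piRNA ends, was 2.51 higher in the double knockout than in the Cyp26b1 knockout (adjusted p = 0.00164). Mael, also a piRNA factor, was lower in both knockouts, by -0.44 in the double knockout (adjusted p = 0.0243) and -1.07 in the Cyp26b1 knockout (adjusted p = 0.000204). The Mael call in the double knockout was lost without any 1 array of the compared genotypes, with changes of -0.45 to -0.43, and with normexp (-0.32, adjusted p = 0.899) or median centring (-0.31, adjusted p = 0.0697). Tdrd1 and Morc1 also stand among the male germ cell markers above, and Mael and Ddx4 among the germ cell markers.

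Partners and regulators of the methyltransferases were called at shares near those of all features. Of 28 tested, 3 rose and 1 fell in the double knockout against the wild type, 10 rose and 6 fell in the Cyp26b1 knockout, and 4 were higher and 7 lower between the knockouts, as double knockout over Cyp26b1 knockout. Over all features, 11.9% of all features were called in the double knockout and 51.1% in the Cyp26b1 knockout, each against the wild type, and 42.9% between the knockouts. Leaving out 1 array moved these counts: 6 lower became 3 without Cyp26b1 knockout array 2 or either wild-type array, 3 higher became 1 without double knockout array 2 or wild-type array 2, 4 higher became 2 without double knockout array 2 or Cyp26b1 knockout array 2, and 7 lower became 3 without double knockout array 1. Hells, a chromatin remodeller needed for normal methylation, read 2.49 and 2.62 in the double knockout, 2.48 and 2.45 in the Cyp26b1 knockout and 1.57 and 1.46 in the wild type. Against the wild type it rose in the double knockout by 1.04 (limma, adjusted p = 0.00114). Cdca7, the partner of HELLS, rose by 0.52 in the double knockout (adjusted p = 0.0157), a call that was lost without double knockout array 2 (0.47) or wild-type array 2 (0.43). Nsd1, which places a histone mark that DNMT3A reads, fell by 0.53 in the double knockout (adjusted p = 0.0374), a call lost without any 1 of the 4 compared arrays (-0.56 to -0.51), with normexp (-0.46, adjusted p = 0.619), with median centring (-0.40, adjusted p = 0.0816) and as the mean of probes (-0.33, adjusted p = 0.166). Setdb1, a histone H3 lysine methyltransferase, rose by 1.42 in the Cyp26b1 knockout against the wild type and was lower in the double knockout than there, at -1.32. E2f6, a repressor of germ-line genes, fell by 1.09 in the Cyp26b1 knockout against the wild type and was 0.82 higher in the double knockout than there. L3mbtl2, found in the same repressor complex, changed by 1.64 in the Cyp26b1 knockout against the wild type, but its other probe changed by -1.11 and the mean of its probes by 0.27 (adjusted p = 0.254). Between the knockouts both L3mbtl2 probes were lower in the double knockout, at -1.40 and -1.33.

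Genes that read methylated CpG sites, listed together with related genes that may not, were called in both directions. Of all features, 11.9%, 51.1% and 42.9% were called in the order that follows. Of 10 tested, 1 was lower and none was higher in the double knockout against the wild type (limma; 3 lower and 1 higher at an unadjusted p below 0.05), 2 rose and 4 fell in the Cyp26b1 knockout, and 5 were higher and 2 lower between the knockouts (double over Cyp26b1 knockout). The 2 higher in the Cyp26b1 knockout became 1 without its array 1 and 0 without either wild-type array, and between the knockouts the 5 became 3 without double knockout array 2 and the 2 became 1 without either double knockout array. With normexp the 4 lower in the Cyp26b1 knockout and the 5 higher between the knockouts became 0. Mbd6, which carries the domain of this family, fell by 0.36 in the double knockout (adjusted p = 0.0263), a call lost without any 1 of the 4 compared arrays (-0.38 to -0.34), with normexp (-0.21, adjusted p = 0.899) and with median centring (-0.23, adjusted p = 0.106). In the Cyp26b1 knockout its probes went apart, at -0.43 and 0.42, and the call was lost with normexp (-0.14, adjusted p = 0.67) and as the mean of probes (-0.005, adjusted p = 0.965). Mbd1, a methyl-CpG binding repressor, fell by 0.46 in the Cyp26b1 knockout against the wild type and was 0.45 higher in the double knockout than there. Both calls were lost with normexp (-0.24, adjusted p = 0.441, and 0.31, adjusted p = 0.317), and the second with the value table's scaling (0.15, adjusted p = 0.229). Mbd2, another such reader, was lower in the double knockout than in the Cyp26b1 knockout, at -0.81, and Zbtb33 (Kaiso) was 0.59 higher, a call lost with normexp (0.46, adjusted p = 0.134) and with the value table's scaling (0.29, adjusted p = 0.0665). Zbtb38 fell by 1.37 in the Cyp26b1 knockout against the wild type, with 1 of the 2 Cyp26b1 knockout arrays above background. That call was lost with normexp (-1.41, adjusted p = 0.624) and with normexp fitted without marked spots (-0.29, adjusted p = 0.0745).

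The genes of base excision and deamination, some of which act in active demethylation, were called in both directions. Of all features, 11.9%, 51.1% and 42.9% were called in the order that follows. Of 21 tested, 1 rose and 1 fell in the double knockout against the wild type, 8 rose and 6 fell in the Cyp26b1 knockout, and 5 were higher and 6 lower between the knockouts (double over Cyp26b1 knockout). The 6 lower in the Cyp26b1 knockout became 3 without either wild-type array, the 1 higher in the double knockout became 2 without either Cyp26b1 knockout array, and the 5 higher between the knockouts became 2 without double knockout array 1 and 3 without double knockout array 2, Cyp26b1 knockout array 2 or either wild-type array. With normexp the 8 higher in the Cyp26b1 knockout became 3, its 6 lower became 2, and the 5 higher and 6 lower between the knockouts became 1 and 2. Gadd45b, a stress-response gene linked to demethylation, rose by 0.63 in the double knockout (limma, adjusted p = 0.00511) and by 0.89 in the Cyp26b1 knockout (adjusted p = 0.000259), each against the wild type. Apobec2, of the cytidine deaminase family, fell by 1.22 in the double knockout (adjusted p = 0.00301; -0.98 and 0.0649 with normexp) and by 1.61 in the Cyp26b1 knockout (adjusted p = 0.000196). Parp2, a poly(ADP-ribose) polymerase of strand-break repair, rose by 0.91 in the Cyp26b1 knockout and was lower in the double knockout than there, at -0.99. Ogg1, a glycosylase for oxidised guanine, was 0.69 higher in the double knockout than in the Cyp26b1 knockout, and Apobec1, an RNA-editing deaminase, was 1.33 higher. The Apobec1 call was lost with normexp (1.04, adjusted p = 0.242) and as the mean of probes (0.37, adjusted p = 0.235).

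Genes that supply the methyl donor S-adenosylmethionine were called in both directions, with 11.9%, 51.1% and 42.9% of all features called in the order that follows. Of 20 tested, 2 rose and 2 fell in the double knockout against the wild type, 4 rose and 7 fell in the Cyp26b1 knockout, and 6 were higher and 2 lower between the knockouts (double over Cyp26b1 knockout). In the double knockout against the wild type the 2 higher became 0 without either double knockout array or wild-type array 1 and 1 without wild-type array 2, and the 2 lower became 0 without wild-type array 1 and 1 without array 2. The 4 higher in the Cyp26b1 knockout became 2 without its array 1 or either wild-type array, and between the knockouts the 6 became 3 without double knockout array 1 and the 2 became 4 without Cyp26b1 knockout array 2. With the value table's scaling, 6 were lower in the double knockout against the wild type, and 3 were higher and 7 lower between the knockouts. Ahcy, which clears the by-product that inhibits methyltransferases, rose by 0.66 in the double knockout (limma, adjusted p = 0.018) and by 2.04 in the Cyp26b1 knockout (adjusted p = 9.1e-05), each against the wild type. Bhmt2, a homocysteine methyltransferase, fell by 2.01 in the double knockout (adjusted p = 0.00642) and by 2.92 in the Cyp26b1 knockout (adjusted p = 0.000286). Ahcy was lower in the double knockout than in the Cyp26b1 knockout, at -1.38. Gnmt, which consumes S-adenosylmethionine, fell by 1.03 in the double knockout (adjusted p = 0.00823). In the double knockout against the wild type, the Ahcy call was lost without any 1 of the 4 compared arrays (0.62 to 0.69), that of Bhmt2 without wild-type array 1 (-2.0) or array 2 (-2.02) and that of Gnmt without wild-type array 1 (-0.91). With normexp all 3 of these calls were lost, at 0.27 for Ahcy (adjusted p = 0.899), -1.43 for Bhmt2 (adjusted p = 0.615) and -0.90 for Gnmt (adjusted p = 0.77). Mat2b, a regulatory subunit of the synthetase, was 0.55 higher in the double knockout than in the Cyp26b1 knockout on its brightest probe, while its other probe changed by -0.57; with normexp the call was lost (0.50, adjusted p = 0.0718).

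Genes of the metabolism of 2-oxoglutarate, a co-substrate of TET enzymes, listed with vitamin C transporters and Ogt, did not pass in the double knockout. Over all features, 11.9% of all features were called in the double knockout and 51.1% in the Cyp26b1 knockout, each against the wild type, and 42.9% between the knockouts. Of 14 tested, none passed there against the wild type (limma; 0 higher and 1 lower at an unadjusted p below 0.05), 7 rose and 3 fell in the Cyp26b1 knockout, and 2 were higher and 6 lower between the knockouts (double over Cyp26b1 knockout). The smallest adjusted p in the double knockout were those of Slc23a2, a vitamin C transporter, at -0.40 (adjusted p = 0.095; -0.60 and 0.0206, past the threshold, with the value table's scaling), and Ogt, a binding partner of TET proteins, at 0.19 (adjusted p = 0.265; -0.013 with the value table's scaling). Idh2, which makes 2-oxoglutarate in mitochondria, rose by 0.95 in the Cyp26b1 knockout against the wild type, and Ogdh, which uses it, rose by 0.93. Sdha, a subunit of succinate dehydrogenase, rose by 0.78. Idh2 and Ogdh were lower in the double knockout than in the Cyp26b1 knockout, at -1.09 and -0.95, as was D2hgdh, a dehydrogenase of 2-hydroxyglutarate, at -1.39, a call lost with normexp (-0.48, adjusted p = 0.923).

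Germ-line genes that DNA methylation keeps silent in somatic cells were called in both directions, with 11.9%, 51.1% and 42.9% of all features called in the order that follows. Of 16 tested, 4 rose and 2 fell in the double knockout against the wild type, 8 rose and 5 fell in the Cyp26b1 knockout, and 5 were higher and 3 lower between the knockouts (double over Cyp26b1 knockout). In the double knockout against the wild type the 4 higher became 2 without double knockout array 2 or wild-type array 1 and 1 without wild-type array 2, and the 2 lower became 1, 1 and 0 without these arrays. The 5 higher between the knockouts became 3 without either double knockout array, and the 3 lower became 7 with the value table's scaling. Taf7l, a germ cell transcription factor subunit, rose by 1.30 in the double knockout (limma, adjusted p = 0.00222) and by 1.84 in the Cyp26b1 knockout (adjusted p = 0.000125). Brdt, a testis bromodomain protein, fell by 1.46 in the double knockout (adjusted p = 0.00763) and by 2.88 in the Cyp26b1 knockout (adjusted p = 0.000143). Between the knockouts, Brdt was 1.42 higher in the double knockout and Mael 0.63 higher (adjusted p = 0.125 with normexp, at 0.61). Hormad1, a meiotic chromosome axis protein, rose by 0.66 in the double knockout (adjusted p = 0.0078). The calls of Brdt and Hormad1 in the double knockout were lost without wild-type array 2, at -1.31 and 0.57, and that of Hormad1 also with normexp (0.57, adjusted p = 0.0788). Tex101, a germ cell surface protein and the gene closest to Dnmt1 in profile, was lower in the double knockout than in the Cyp26b1 knockout, at -0.91 (adjusted p = 0.000609). Of the 16, 5 stand among the germ cell markers and 2 among the meiotic markers.

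Retinoid response genes were higher in both knockouts. Of 11 tested, 8 were higher in the double knockout and 9 in the Cyp26b1 knockout, each against the wild type, and none was lower (limma; at an unadjusted p below 0.05, 8 higher and 1 lower, and 9 higher and 0 lower). Between the knockouts, 2 went up and 2 down in the double knockout, each 1 without double knockout array 2 or Cyp26b1 knockout array 1. Rarb, a retinoic acid receptor and a target of the hormone, rose by 1.90 in the double knockout (adjusted p = 0.000255) and by 1.95 in the Cyp26b1 knockout (adjusted p = 5.47e-05). Cyp26a1, a relative of Cyp26b1 that also degrades retinoic acid, rose by 5.05 in the double knockout and 4.84 in the Cyp26b1 knockout, with 1 of the 2 wild-type arrays above background (with normexp, 1.81 in the double knockout and 1.57 in the Cyp26b1 knockout). Dhrs3, which turns retinal back into retinol, rose by 1.02 in the Cyp26b1 knockout. Between the knockouts, Dhrs3 was lower in the double knockout, at -0.36, a call lost without double knockout array 2 (-0.33) or Cyp26b1 knockout array 1 (-0.27), with median centring (-0.24, adjusted p = 0.0837) and with normexp (-0.37, adjusted p = 0.202). Rara, a retinoic acid receptor, was also lower there, at -1.33, but at -0.11 with normexp (adjusted p = 0.97). Without wild-type array 2 the count of 8 became 5. A gene became lower in the double knockout without its array 1, and in the Cyp26b1 knockout without either double knockout array (1 each). With normexp the 8 became 4 and the 9 became 3, and without moderation of variances the 8 became 0. Of all features, 5.32% were higher in the double knockout and 21.3% in the Cyp26b1 knockout, each against the wild type. The shares that were lower were 6.57% and 29.8%. Between the knockouts, 42.9% of all features were called, 25.3% higher in the double knockout and 17.6% lower.

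**Figure D4:**
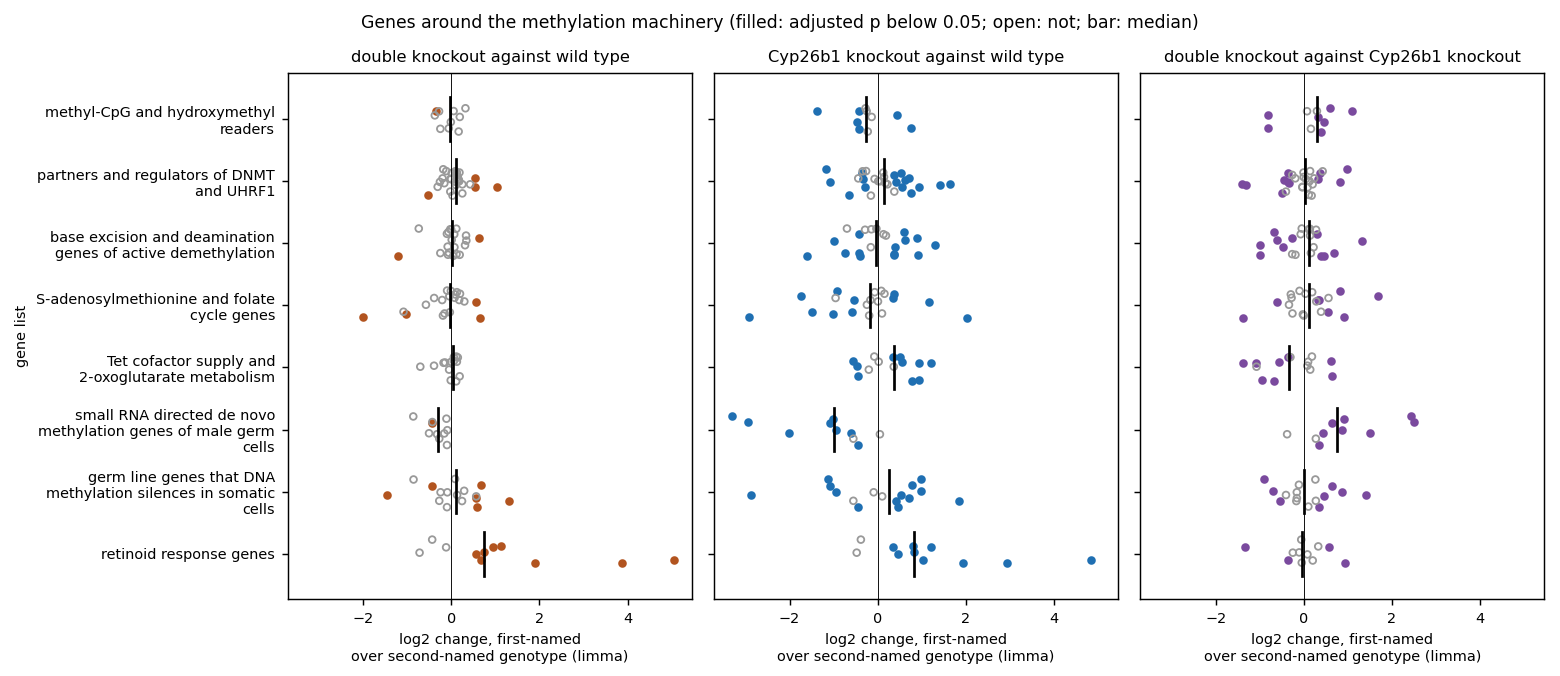
Log2 change of every tested gene of the 8 lists in the 3 comparisons. Filled points passed an adjusted p of 0.05, open points did not, and the bars are medians, which lie at -0.30, -0.99 and 0.75 for the small RNA genes in double knockout against wild type, Cyp26b1 knockout against wild type and double knockout against Cyp26b1 knockout.

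Other probes of the list genes picked by the naming rule had the same sign as the brightest in 8 of 8 cases in the double knockout against the wild type, in 10 of 12 in the Cyp26b1 knockout against the wild type and in 12 of 13 between the knockouts. The lists hold genes known to bear on methylation and were counted with no test of a list as a whole.

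**Figure D5:**
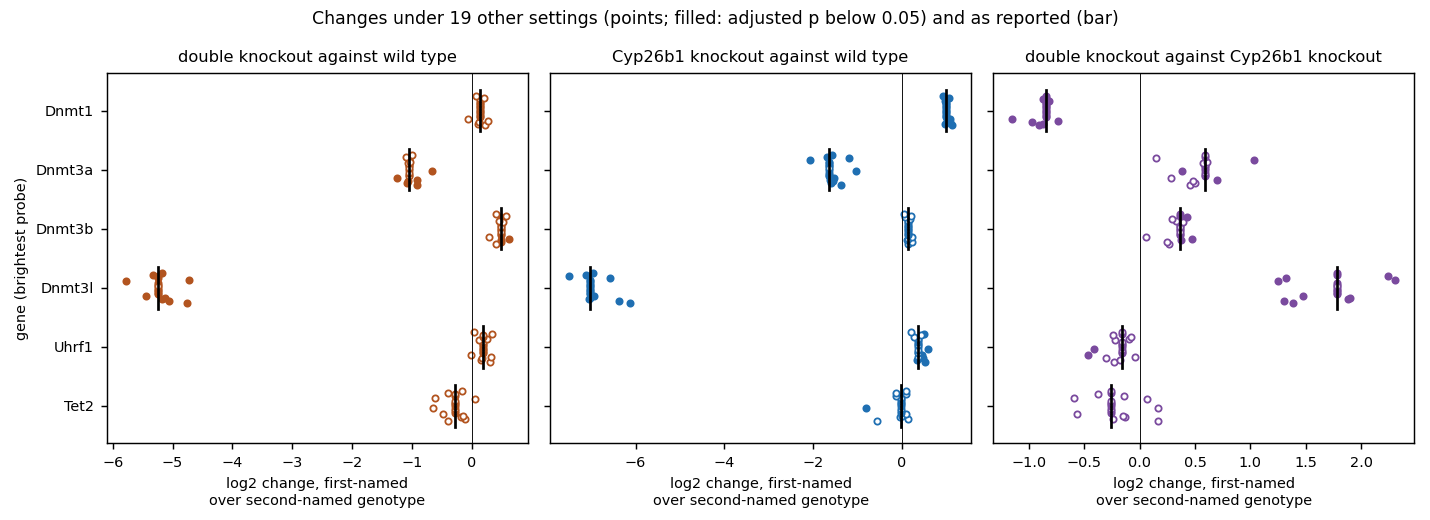
Log2 change of each member under 19 other settings, of its brightest probe except in the setting that averages all probes of a gene (points, filled where the adjusted p was below 0.05) and as reported (bars). Dnmt3l stays between -7.49 and -6.13 in Cyp26b1 knockout against wild type, Dnmt1 between 0.92 and 1.13, and the points of Tet2 lie on both sides of 0 in all 3 comparisons.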

How the data were processed

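Processed spot intensities on a linear scale, 1 scanner file per array, were deposited by the authors. The submitters' processing notes name Agilent Feature Extraction 9.5 and the file headers version 9.5.3.1; the sources used here do not give its settings. The authors also deposited a table that held a linear ratio per probe and genotype. Its reference and scaling are not stated. Its log2 differences between genotypes matched those of the scanner values (Pearson r above 0.9999 across 24500 probes), apart from shifts. These were -0.20 in the double knockout and 0.10 in the Cyp26b1 knockout, each against the wild type, and -0.30 between the knockouts. The table's column medians were 0.959 for the double knockout, 1.12 for the Cyp26b1 knockout and 0.99979 for the wild type. Flags for background and saturation were used as deposited.

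Log2 processed signals minus each array's 75th percentile were averaged over the spots of a probe, leaving out control and outlier spots, and 25 probes that lacked a usable spot on an array. Accessions were matched to RefSeq symbols: 23374 probes had 1 symbol, 0 had several and 17800 had none. A gene was represented by its brightest probe. Features were kept where a genotype had both arrays well above background, 21552 in all and 13295 with a symbol. One limma 3.58.1 fit (R 4.3.3, eBayes with trend, 3 residual and 4.37 prior degrees of freedom) covered the 6 arrays. P-values are two-sided and Benjamini-Hochberg adjusted over all features, with a threshold of 0.05, and errors are standard errors. With 2 arrays against 2, an exact permutation test gives no p below 0.333. The number of arrays limits the precision. A second fit took each of 27865 probes as its own feature. Tested on simulated data with known changes over 21552 features, the fit recovered 2-fold changes in 74% of cases for the double knockout against the wild type, 73.1% for the Cyp26b1 knockout against the wild type and 74.3% between the knockouts. It recovered 1.5-fold changes in 32.8%, 35.5% and 37.9% of cases in the same order. Of its calls there, 9.1%, 7.08% and 7.08% were false, above the nominal 5% of the threshold, so calls with an adjusted p near 0.05 are less certain than that value says. The scanner files hold no mean signal, so normexp (offset 50) used median signals.

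Promoter windows and names came from RefSeq tables of GRCm38.p6. Members, lists and motifs were chosen with earlier results of these data known. Named from each list and comparison were up to 3 genes with the smallest adjusted p among those called, or 2 where none was. The fit of probe pairs and the recounting of lists under other settings were added after the values were seen. Some genes that these rules pick are not reported here.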

Additional observations from a re-analysis of the deposited data

How the results depend on the processing

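Of the members' calls, those of Dnmt1 and the fall of Dnmt3l in the Cyp26b1 knockout against the wild type held in 19 of 19 other settings. Dnmt3l in the double knockout (-5.78 to -4.72) and between the knockouts (1.25 to 2.31), and Dnmt3a in the Cyp26b1 knockout (-2.08 to -1.05), held in 18 of 19 each, failing without moderation of variances (adjusted p = 0.0887, 0.123 and 0.0579). Dnmt3a in the double knockout held in 12 of 19, Dnmt3b against either genotype in 11 of 19 and Uhrf1 in the Cyp26b1 knockout in 9 of 19. Signs turned for changes not called: Tet2 in the Cyp26b1 knockout against the wild type was 0.13 with normexp fitted without marked spots and 0.083 with the value table's scaling; with that scaling, Dnmt1, Uhrf1 and Ogt in the double knockout against the wild type were -0.058, -0.0091 and -0.013; Tet2 between the knockouts was 0.17 with normexp and 0.16 as the mean of probes. Mat2b between the knockouts was -0.0062 as the mean of probes, which average opposite changes. With 1 array left out, Tet2 ranged from -0.61 to 0.049 in the double knockout and -0.14 to 0.10 in the Cyp26b1 knockout, each against the wild type, and from -0.59 to 0.069 between the knockouts. Features called numbered 2564 in the double knockout against the wild type, 11008 in the Cyp26b1 knockout against the wild type and 9238 between the knockouts. In that order they were 517, 3589 and 2610 with normexp and 1, 6874 and 4655 without moderation; without the filter they were 1518 in the first and 14220 in the last, and with the value table's scaling 4971 in the first. Leaving out 1 array gave 543 (wild-type array 2) to 2843 in the first, with 676 without wild-type array 1, 1551 without double knockout array 1 and 1325 without double knockout array 2. Members called were 0, 2 and 1 without moderation, 1 without trend in the double knockout against the wild type, 5 between the knockouts with the mean of probes, and 1 to 3 in the double knockout against the wild type with 1 array left out. Of the list genes' calls picked by the naming rule, 16 of 16 in the double knockout against the wild type, 0 of 23 in the Cyp26b1 knockout against the wild type and 7 of 24 between the knockouts were lost without moderation, and 9, 3 and 9 with normexp. Normexp fitted without marked spots called 2350, 9987 and 7942 features in that order. With it, only the call of Zbtb38 in the Cyp26b1 knockout was lost among these list genes' calls. Among the members' calls, that of Dnmt3b between the knockouts was lost with it (0.25, adjusted p = 0.0874). The causes of these moves were not tested. Pairs of probes called in the double knockout against the wild type were 16 after quantile normalization, against 48. Same-numbered arrays share only a number, with correlations of deviations of 0.201, 0.108 and 0.114; with the replicate number as a block, 3019, 11683 and 9954 features and 3, 4 and 3 members were called. The slide block could not be fitted, since each slide held 1 genotype, and was not run.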
